A study of Mus musculus with 2 samples.

Results

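The data described here are the transcript levels of 7 genes that code for secreted inhibitors of Wnt signalling, Sfrp1, Sfrp2, Dkk2, Dkk3, Wif1, Notum and Sostdc1, in mouse back skin. They were taken by name from the 31053 listed genes, without regard to their values, and all 7 had at least 1 unique molecular identifier (UMI, the tag that counts 1 captured RNA molecule) in the cells kept. The series holds 2 single-cell libraries, each from 1 mouse at postnatal day 53. The induced mouse carried a transgene in which a doxycycline-responsive promoter (pTRE2) drives miR-205, a microRNA of skin epithelium, under a reverse transactivator expressed from the Krt14 promoter (Krt14-rtTA), so that induction is aimed at the skin epithelium and not at the dermis. The control was a littermate of the same sex. Both mice carried the K14-H2BGFP allele, which marks Krt14-expressing cells with a fluorescent histone.

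The comparison asks how raised miR-205 changes gene expression in follicle stem cells and the cells around them in resting skin. Doxycycline chow was given for 4 days from day 49. The study's methods and the extraction protocol state that both mice received it, while a treatment label calls the control untreated, and which of these holds could not be settled. The strain label reads C57BL/6, while the methods place the making of the transgenic line in FVB mice. Live cells were sorted to a set mix of epidermal, hair follicle and dermal cells, so the numbers of cells in each population follow the sort. With 1 library in each group there is no replicate, and no test between the groups was possible. Every interval given below is a 95% interval for counting error alone, and a difference between the libraries may be a difference between 2 mice.

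Wnt ligands are lipid-bearing proteins that bind Frizzled and Lrp5 or Lrp6 receptors on nearby cells and stabilise beta-catenin. In the hair follicle this signal starts the growth phase from the hair germ, a cluster of progenitors below the bulge, in contact with the dermal papilla, the signalling centre of the dermis. Stem cells of the bulge stay quiet for long periods. Secreted inhibitors act at different steps. Sfrp1, Sfrp2 and Wif1 bind Wnt ligands outside the cell. Dkk2 binds the Lrp5 and Lrp6 co-receptors, as does Sostdc1, which also binds BMP ligands. Notum is an enzyme that removes the lipid from Wnt proteins. Dkk3 is a divergent Dickkopf family member whose action on Wnt receptors is less clear.

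The microRNA raised in the induced mouse has the following mature sequence in RefSeq, on the minus strand of chr1:193507503-193507524 (GRCm38.p6). The capitals mark the seed, bases 2 to 8, with which a microRNA pairs to its targets.
miR-205-5p: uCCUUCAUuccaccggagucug
The DNA complement of that seed, ATGAAGG, was looked for in the longest annotated 3′ UTR of each gene (GENCODE vM1). It occurred in 1 of the 7 members, Sfrp1, and in 2064 of 19915 genes with an annotated 3′ UTR (10.4%). The match in Sfrp1 began 760 bases after the stop codon in a 3′ UTR of 3144 bases, and the base opposite the first base of the microRNA was A. It is shown because Sfrp1 is the member with the most UMIs in the bulge.
Sfrp1 site: tctgcttttgtATGAAGGaggtacgtggg
No match to those 7 letters was found in the 3′ UTRs of the other 6 members, which ranged from 432 bases (Notum) to 2192 bases (Dkk3). A match is a description of the letters and not of binding. Neither the mature microRNA nor the transgene is counted by this assay, so the induction itself could not be checked.

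In the GRCm38.p6 annotation the ligand-binding members lie as Sfrp1 (ENSMUSG00000031548) at chr8:23411383-23449632, Sfrp2 (ENSMUSG00000027996) at chr3:83765750-83774314 and Wif1 (ENSMUSG00000020218) at chr10:121034004-121100642. The members that bind co-receptors and their relative lie as Dkk2 (ENSMUSG00000028031) at chr3:132085266-132180304, Dkk3 (ENSMUSG00000030772) at chr7:112116019-112159482 and Sostdc1 (ENSMUSG00000036169) at chr12:36314169-36318452. The enzyme gene Notum (ENSMUSG00000042988) lies at chr11:120653788-120661193. UMIs are counted over whole genes, so no value below belongs to 1 exon or transcript.

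The 2 libraries held 4545 control and 4264 induced barcodes with 55465594 and 49733560 UMIs, of which 3936 and 3628 cells were kept, beside about 5000 cells that the protocol aimed for, at medians of 12198.5 and 11752.5 UMIs a cell. The libraries shared 11 barcodes, 5 of them among kept cells. The cells fell into 25 clusters, built with the 7 members and the other Wnt pathway genes withheld from the clustering. Of these, 5 populations carried most of the RNA of the members other than Sostdc1, which was spread over more keratinocyte clusters. The bulge-like cells (clusters 1 and 19, 351 control and 346 induced cells) raised Cd34, Krt24, Krt15, Postn and Lhx2. Aspn, the other listed bulge marker, had only 45 control and 43 induced UMIs there. Cluster 7 (209 and 215 cells) raised 5 of the 6 hair germ markers, Lgr5, Cdh3, Gli1, Lef1 and Runx1, but also the smooth muscle genes Acta2 and Tagln, and is called by its number. Cluster 13 (96 and 160 cells) was led by Pthlh and met no marker list, and held 498 control and 678 induced Aspn UMIs. The dermal papilla-like cells (cluster 8, 141 and 222 cells) raised Crabp1, Hhip, Prdm1, Sox2, Alx4 and Sox18, although Corin had only 9 control and 7 induced UMIs there. The dermal fibroblast-like cells (cluster 10, 137 and 185 cells) raised 6 of the collagen and matrix markers, Col1a1, Col1a2, Col3a1, Dcn, Lum and Pdgfra.

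The members split into an epithelial and a dermal group. Sfrp1, Dkk3 and Sostdc1 were highest in keratinocyte clusters, Dkk2 lay almost wholly in the 2 dermal populations, and Wif1 and Notum were found in the dermal papilla-like cells and also in epithelial clusters, Wif1 in clusters 7 and 13 and Notum in cluster 7. Levels are given as CPM, the UMIs of a gene in a population scaled by all UMIs of that population. The bulge-like cells held 64.8% of all control and 61.4% of all induced Sfrp1 UMIs, in 8.92% and 9.54% of the cells. They held 54.2% and 56.1% of the Dkk3 UMIs. The dermal papilla-like cells held 92.8% and 94.5% of the Notum UMIs. Of Dkk2, the dermal papilla-like cells held 245 of the 462 control and 654 of the 1098 induced UMIs, and the fibroblast-like cells 210 and 428. The order of the 23 clusters with at least 20 cells in each library was close in both libraries for Sostdc1 (Spearman's rho 0.942) and Dkk3 (0.917), and less so for Sfrp1 (0.805), Wif1 (0.775), Notum (0.540), Sfrp2 (0.527) and Dkk2 (0.380), the last 3 of which had 0 UMIs in most clusters of at least 1 library. The clusters of a library share its depth and its free RNA, so these values are descriptions.

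**Figure D1:**
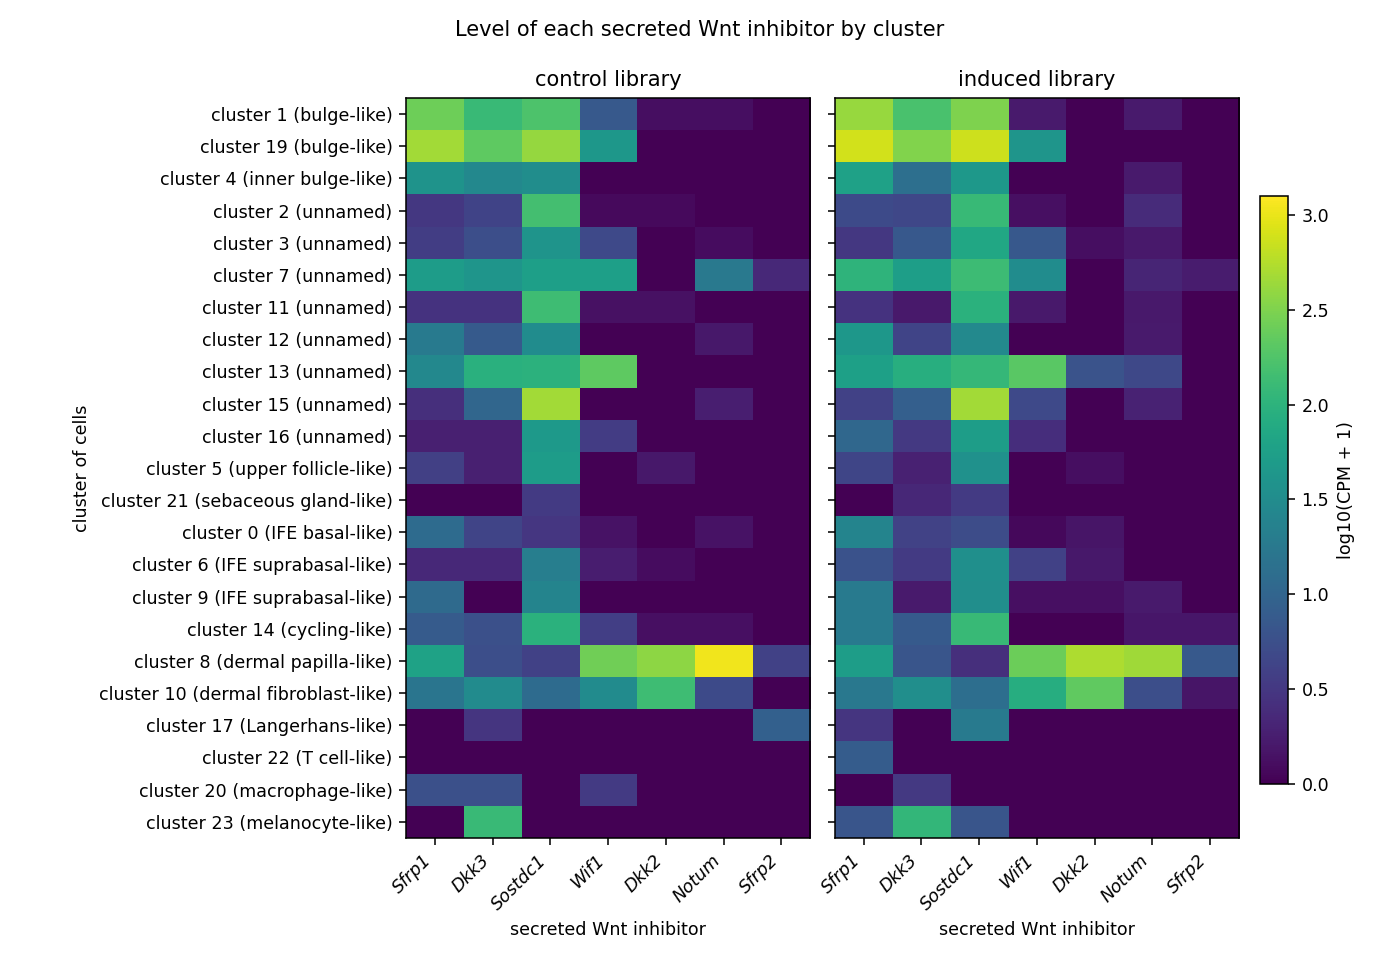
Level of each of the 7 members (columns, colour scale log10 of CPM + 1) in each cluster (rows), with 1 panel for each library, for the 23 clusters with at least 20 cells in both libraries (IFE, interfollicular epidermis). Sfrp1 and Dkk3 stand highest in bulge-like clusters 1 and 19, Dkk2 and Notum in the dermal papilla-like cells, and Sostdc1 spreads over keratinocyte clusters in both libraries.

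Among the ligand-binding members, Sfrp1 was the inhibitor of the bulge and was higher there in the induced library. The bulge-like cells held 923 control and 1591 induced UMIs, or 270.0 CPM (253 to 288) and 463 CPM (441 to 486). The log2 ratio of induced over control was 0.78 (0.66 to 0.90), a 1.71-fold difference, and the counting intervals of the 2 levels did not overlap. With bulge cells taken by marker UMIs the log2 ratio was 0.40, no longer past 1.5-fold, and with under 5% mitochondrial UMIs it was 1.23. Cluster 1 went from 256 to 415 CPM (log2 ratio 0.70) and cluster 19 from 463 to 762 CPM (0.72), both ratios a little below the pooled one. The smaller bulge-like cluster, 19, stood 1.81-fold above the other in control and 1.84-fold above it in induced cells. Cluster 19 had 32 control and 59 induced cells. In cluster 7 the level was 51.3 CPM in control and 102 CPM in induced cells, giving a log2 ratio of 0.99 (0.69 to 1.32). The bulge-like cells exceeded cluster 7 by 5.27-fold (4.36 to 6.41) in control and by 4.52-fold (3.98 to 5.15) in induced cells. Bulge-like cells of the 2 libraries also differed in their markers. Krt24 had a log2 ratio of 1.45, Cd34 of 0.49, Krt15 of 0.38 and Lhx2 of 0.27, while Postn and Aspn each stood at −0.07. The part of these differences in the bulge values of the members was not tested.

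The higher Sfrp1 level in the induced library was not particular to the follicle stem cells. Of 14 clusters with at least 20 Sfrp1 UMIs over both libraries, 13 had a log2 ratio above 0, although the intervals of clusters 2, 5 and 10 included 0. The interfollicular basal-like cells, keratinocytes of the surface epidermis, went from 11.2 to 24.0 CPM (log2 ratio 1.10), and the cycling-like cells from 6.83 to 18.2 CPM (1.40). Cluster 12 went from 17.9 to 43.1 CPM (1.26), cluster 13 from 26.7 to 56.7 CPM (1.06) and the inner bulge-like cells from 38.6 to 58.0 CPM (0.58). The exception was the dermal papilla-like population, at 60.4 CPM in control and 52.2 CPM in induced cells, for a log2 ratio of −0.22. Fibroblast-like cells had 15.1 and 16.4 CPM (0.11). The intervals of the dermal papilla-like and fibroblast-like ratios included 0, while those of the epithelial ratios just named did not.

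More of the bulge-like cells held Sfrp1, as well as more UMIs a cell. To compare cells at 1 depth, each was thinned to 5000 UMIs. After thinning, 63.3% of control bulge-like cells (57.8 to 68.5) and 76.8% of induced ones (71.9 to 81.2) had a Sfrp1 UMI, from median depths of 9575 and 9911 UMIs. Too shallow to thin were 24 control and 14 induced cells. Unthinned, the shares were 80.3% and 86.7%. As a background, thinned Langerhans-like cells, immune cells of the epidermis that should lack Sfrp1, gave 0 of 49 control cells, which allows a share of up to 6.12%, and 2.22% of 45 induced cells, at median depths of 8951.5 and 9592.5 UMIs. Cluster 7 stood between, at 19.5% in control and 31.4% in induced cells. Sfrp1 in the T cell-like population, 10.1 CPM in control and 18.1 CPM in induced cells, came from 2 and 10 UMIs.

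Sfrp2, the close relative of Sfrp1, was at the limit of detection. It had 9 control UMIs in 4 cells and 12 induced UMIs in 12 cells. The dermal papilla-like cells held 2 and 8 of them and cluster 7 held 3 and 2. A further 4 control UMIs lay in 1 Langerhans-like cell. No cluster reached 20 Sfrp2 UMIs, and no ratio is given.

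Wif1, the other ligand-binding member, marked the dermal papilla-like cells and cluster 13 at like levels in both libraries. The dermal papilla-like cells had 269 CPM in control and 252 CPM in induced cells, which is a log2 ratio of −0.09. Cluster 13 had 215 and 204 CPM, a log2 ratio of −0.08, so that it stood at 0.801-fold of the dermal papilla-like level in control and 0.811-fold in induced cells. The intervals of both induced over control log2 ratios included 0. Those of the folds between the 2 populations, 0.645 to 0.994 in control and 0.687 to 0.957 in induced cells, left out equal levels. After thinning, 70.0% of control and 61.9% of induced dermal papilla-like cells had a Wif1 UMI, and 46.6% and 39.0% of cluster 13 did, against none of 49 and none of 45 Langerhans-like cells. Thinning left out 91 control and 83 induced dermal papilla-like cells, whose median depths were 4493 and 5486.5 UMIs.

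Elsewhere Wif1 went in opposite directions. In cluster 7 it was lower in the induced library, with 131 UMIs in 55 control cells and 87 UMIs in 33 induced cells, or 54.6 and 31.6 CPM, a log2 ratio of −0.79 (−1.20 to −0.39). This value turned to 0.59 when only cells with under 5% mitochondrial UMIs were kept, a setting that left 58 control and 48 induced cells with 13 and 21 UMIs. In the fibroblast-like cells Wif1 was higher in the induced library, at 30.2 CPM in control and 85.2 CPM in induced cells, giving a log2 ratio of 1.48 (1.02 to 2.00). These UMIs came from 9 control and 22 induced cells, and the 5 cells with the most Wif1 held 91.3% of the control and 74.7% of the induced UMIs. The bulge-like cells had 30 control and 21 induced UMIs (log2 ratio −0.51), with 20 and 2 in cluster 1 and 10 and 19 in cluster 19.

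Sostdc1, which binds Lrp co-receptors and BMP ligands, was the member with the most UMIs, 3515 in control and 3857 in induced cells, and the most widely expressed. Its level in the bulge-like cells was 188 CPM in control and 372 CPM in induced cells, for a log2 ratio of 0.98 (0.84 to 1.12). Both bulge-like clusters were higher in the induced library, cluster 1 going from 173 to 314 CPM (0.86) and cluster 19 from 406 to 735 CPM (0.85). Both ratios lay below the pooled one. Cluster 19, the higher of the 2, had 32 control and 59 induced cells, so the pooled ratio also follows the mix of the clusters. Cluster 7 went from 55.5 to 133 CPM, a log2 ratio of 1.26 (0.97 to 1.56). After thinning, 42.5% of control and 60.2% of induced bulge-like cells had a Sostdc1 UMI, and 21.0% and 31.9% of cluster 7 did. The Langerhans-like background was 0 of 49 in control and 4.44% of 45 cells in the induced library.

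In control, the highest Sostdc1 level was not in the bulge. Cluster 15, a keratinocyte cluster led by Serpina3g, Sostdc1 and Klf2, had 469 CPM in control and 464 CPM in induced cells, which is a log2 ratio of −0.01 (−0.19 to 0.16). Cluster 15 exceeded the pooled bulge-like cells by 2.49-fold in control and by 1.25-fold in the induced library. Bulge-like cluster 19 alone had 406 CPM in control (328 to 497), an interval that overlapped that of cluster 15 (432 to 508). In the induced library cluster 19 stood above cluster 15, at 735 CPM. Sostdc1 was lower in the induced library in cluster 2 (150.2 to 123 CPM, log2 ratio −0.29), in cluster 11 (135 to 93.6 CPM, −0.53) and in the upper follicle-like cells (51.4 to 36.5 CPM, −0.49), and these 3 intervals left out 0. Cluster 3 went the other way, from 39.3 to 70.0 CPM (0.83). Of 17 clusters with at least 20 UMIs, 12 had a log2 ratio above 0. The bulge-like cells held 18.3% of all control and 33.1% of all induced Sostdc1 UMIs. Such shares also follow the number of cells in each cluster. Cluster 2 made up 10.2% of control and 5.32% of induced cells, and held 21.7% and 8.97% of the Sostdc1 UMIs.

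Dkk3 followed Sfrp1 to the bulge, with a smaller difference between the libraries. The bulge-like cells had 452 control and 628 induced UMIs, or 132 and 183 CPM, a log2 ratio of 0.47 (0.29 to 0.64). Cluster 19 went from 216 to 323 CPM and cluster 1 from 126 to 160.1 CPM. Cluster 13 had 91.7 CPM in control and 88.0 CPM in induced cells (log2 ratio −0.06), and cluster 7 had 40.4 and 53.4 CPM (0.40). The inner bulge-like cells, a Krt75 layer beside the stem cells, went the opposite way, from 26.8 to 12.6 CPM, a log2 ratio of −1.09 (−1.80 to −0.37), on 34 and 37 UMIs. The bulge-like cells exceeded them by 4.93-fold in control and by 14.5-fold in induced cells. Over 12 clusters the Dkk3 ratio was above 0 in 7 and below 0 in 5. Melanocyte-like cells had 124 and 112 CPM, from only 11 and 20 UMIs.

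Dkk2, the Lrp-binding Dickkopf of the dermis, was higher in both dermal populations of the induced library. The dermal papilla-like cells had 370.0 CPM in control and 525 CPM in induced cells, giving a log2 ratio of 0.50 (0.29 to 0.72). Fibroblast-like cells had 138 and 220 CPM, a log2 ratio of 0.67 (0.43 to 0.91). These UMIs came from 44 control and 78 induced cells, and the 5 cells with the most Dkk2 held 41.9% and 27.1% of them. The dermal papilla-like level exceeded the fibroblast-like level by 2.68-fold (2.22 to 3.24) in control and 2.39-fold (2.11 to 2.71) in induced cells. Dkk2 was detected in 60.0% of control and 71.9% of induced dermal papilla-like cells after thinning, and in 23.7% and 39.6% of fibroblast-like cells. In the epithelium it was barely detected at this depth. Cluster 7 had 0 UMIs in 209 control cells, which allows a share of cells with a UMI of up to 1.44%, and 0 in 215 induced cells (up to 1.40%), and the bulge-like cells had 1 and 0. These limits cover captured UMIs and not cells that express the gene.

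Notum, the Wnt deacylase, showed the largest difference of any member in the dermal papilla-like cells. It had 705 UMIs in 108 of 141 control cells and 568 UMIs in 158 of 222 induced cells, or 1065 and 456 CPM. The log2 ratio was −1.22 (−1.39 to −1.06). After thinning, 88.0% of control cells (75.7 to 95.5) and 69.8% of induced cells (61.4 to 77.3) had a Notum UMI, against none of 49 and none of 45 Langerhans-like cells. These shares rest on the 50 control and 139 induced cells deep enough to thin, so they leave out many of the 141 and 222 cells counted above. The cell with the most Notum held 34 UMIs in control and 16 in the induced library. Without the 5 highest cells of each library the log2 ratio was −1.10. Fibroblast-like cells had 6 and 9 Notum UMIs, so that the dermal papilla-like level exceeded theirs by 270.0-fold in control and by 98.7-fold in induced cells.

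Dermal papilla-like cells of the 2 libraries also differed in their markers. The summed level of the 7 listed dermal papilla markers was 3399 CPM in control and 1976 CPM in induced cells (log2 ratio −0.78), carried by Crabp1 at −0.90. Prdm1 stood at 0.28, Sox2 at 0.60 and Hhip at 0.64, while Corin stood at −1.25, Alx4 at −0.60 and Sox18 at −0.07. Apart from that of Crabp1, the intervals of these markers included 0. Aspn, listed as a bulge marker, went from 677 to 1899 CPM, and the epithelial keratin gene Krt14 had 681 control and 522 induced UMIs, a log2 ratio of −1.30. The number of cells and their median depth were higher in the induced library. The part of these differences in the Notum and Dkk2 values was not tested. When dermal papilla cells were taken instead by their marker UMIs, there were 269 control and 348 induced cells, 48.9% of them in the main population. The Notum log2 ratio was then −0.56, no longer past 1.5-fold, and the Dkk2 log2 ratio 1.26, each with the same sign as before.

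A second site of Notum was seen in cluster 7 of the control library. It had 40 UMIs in 25 of 209 control cells and 3 UMIs in 3 of 215 induced cells, or 16.7 and 1.09 CPM, a log2 ratio of −3.73 (−6.27 to −2.29). The 25 control cells held 1 to 4 Notum UMIs each. None of them had a UMI of a dermal papilla marker, while 26 of the other control cells did. No control cell of the cluster had a Dkk2 UMI. Lgr5 was seen in 14 of the 25, and in 142 of all 209 control cells of the cluster. The median of 125 Krt5 and Krt14 UMIs in the 25 cells lay beside 123 in the other control cells. Their median depth was 13262 UMIs, beside 10668 in the others. After thinning, 7.0% of control cells (3.88 to 11.5) and 0.476% of induced cells (0.0121 to 2.62) had a Notum UMI. The dermal papilla-like level exceeded that of cluster 7 by 63.8-fold in control. With under 5% mitochondrial UMIs 17 control and 1 induced UMIs remained, and with cells taken by hair germ marker UMIs 11 and 1, both too few for a ratio by the 20 UMI minimum.

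Cluster 7 of the induced library held other differences. Acta2, a smooth muscle actin, went from 11 to 444 UMIs, the 444 in 7 cells, and Tagln from 93 to 393 UMIs. The immediate early gene Fos had a log2 ratio of 1.36, and Mki67, a gene of dividing cells, went from 5 UMIs in 4 cells to 38 UMIs in 19 cells. Their part in the values of Sfrp1, Sostdc1, Wif1 and Notum was not tested. Without the cells holding an Acta2 or Tagln UMI, or without those holding a Mki67 or Top2a UMI, settings chosen after the data were seen, no member's ratio changed its sign in this cluster.

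**Figure D2:**
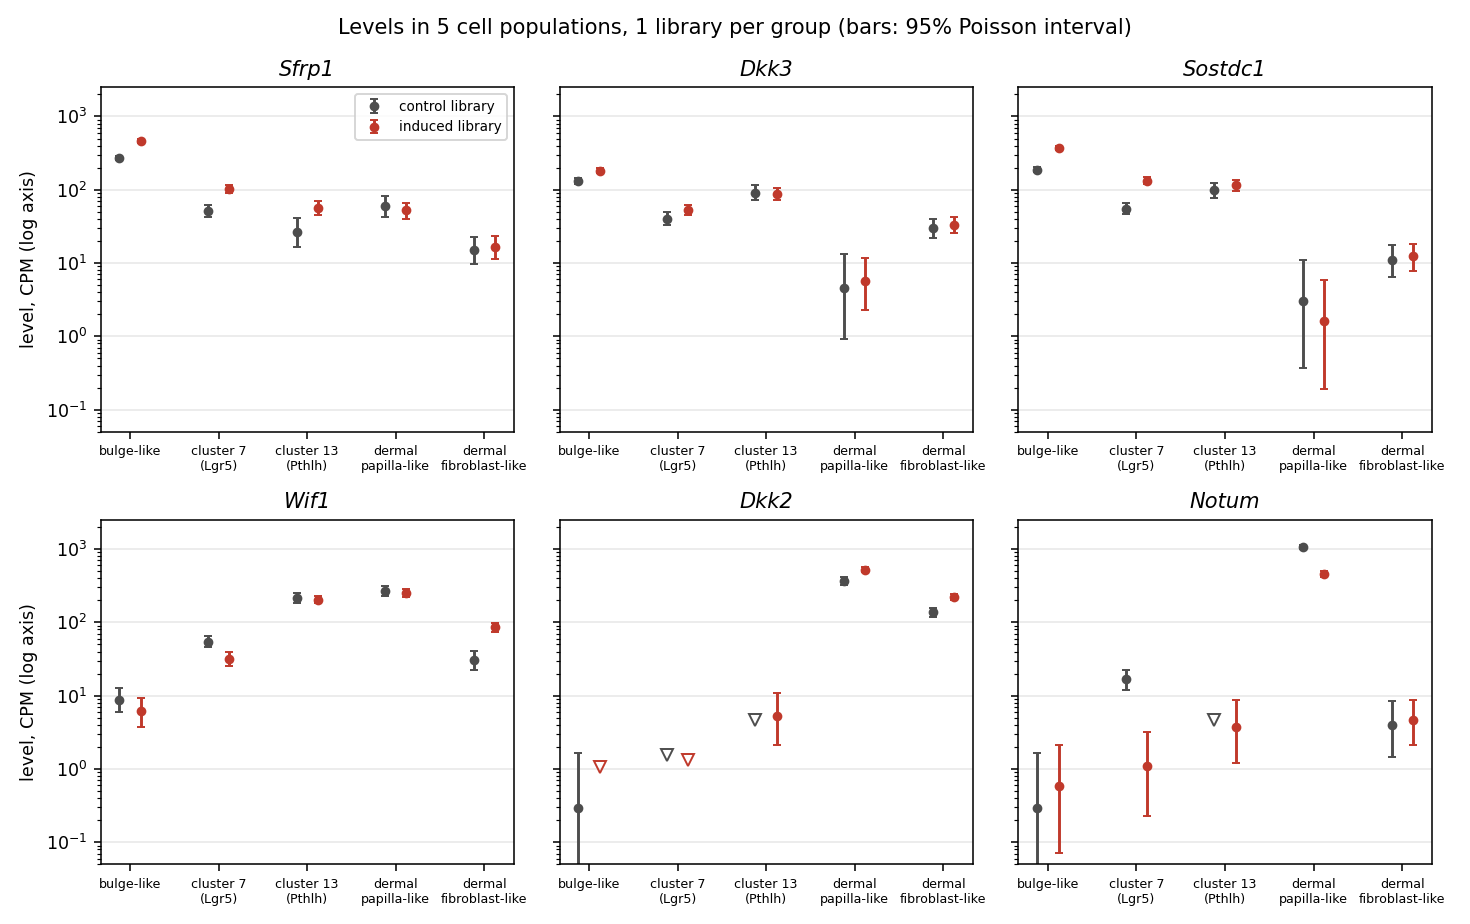
Level in CPM (log axis) of each member in the 5 populations, control and induced library side by side, with bars for the 95% Poisson interval and open triangles for the upper limit where 0 UMIs were counted. Notum in the dermal papilla-like cells stands at 1065 CPM in control and 456 CPM in the induced library, while Sfrp1 and Sostdc1 in the bulge-like cells stand higher in the induced library.

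Against all genes, the members did not stand as a group on 1 side. A gene is counted here when its ratio passed 1.5-fold on at least 20 UMIs over both libraries. In the bulge-like cells 2 of the 4 members with enough UMIs, Sfrp1 and Sostdc1, were higher past 1.5-fold and 0 lower, where 12.7% of all genes were higher and 6.7% lower. In cluster 7, 2 of 5 members were higher (Sfrp1, Sostdc1) and 2 lower (Wif1, Notum), beside 15.4% and 8.58% of all genes. In cluster 13 only Sfrp1 of 4 was higher and 0 were lower, beside 10.2% and 9.69%. In the dermal papilla-like cells 0 of 4 were higher and 1, Notum, was lower, beside 10.2% and 13.6%. In the fibroblast-like cells Wif1 and Dkk2 of 5 were higher and 0 lower, beside 14.0% and 6.04%. The members' median log2 ratio was 0.62 in the bulge-like cells, where that of all genes was 0.09, and 0.40 in cluster 7, where it was 0.03. In the dermal papilla-like cells the members' median was −0.16 and that of all genes −0.06. These shares rest on 4 or 5 genes each.

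**Figure D3:**
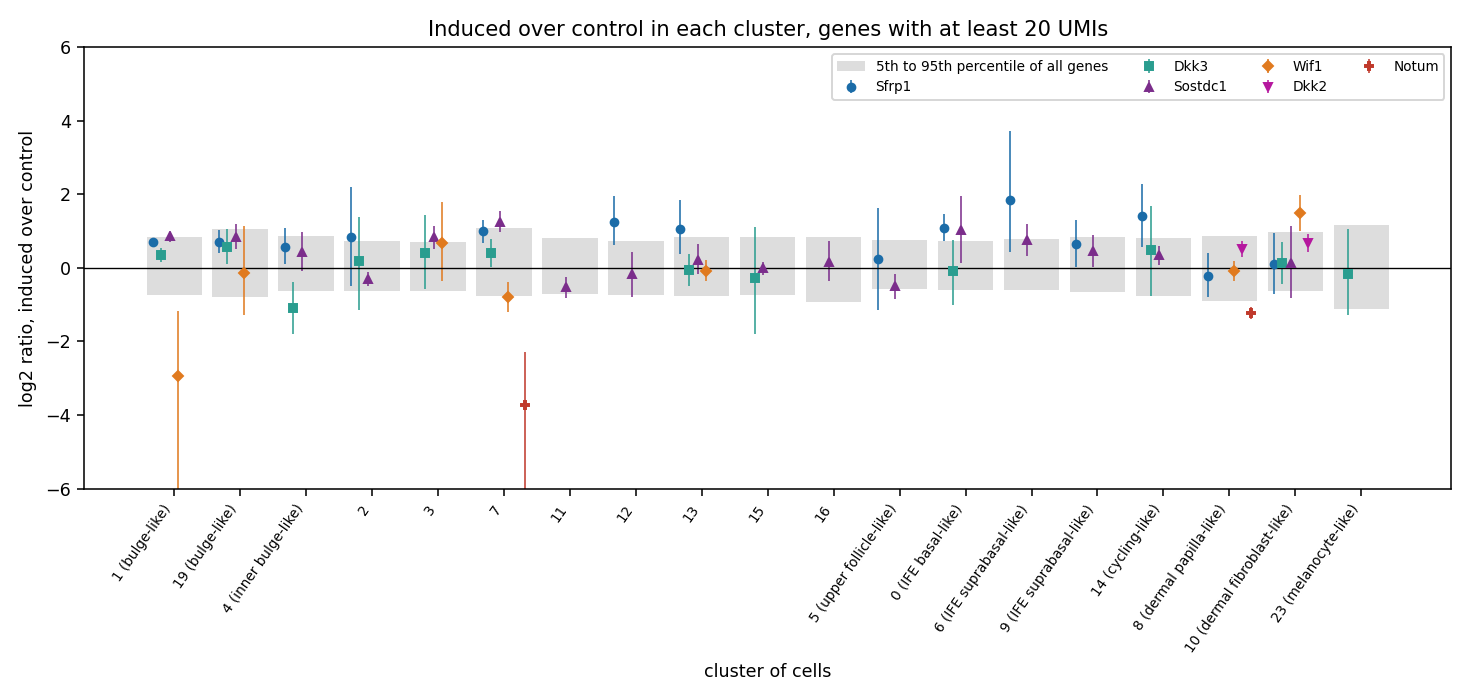
Log2 ratio of induced over control for each member in each cluster where it had at least 20 UMIs, with 95% counting intervals that end at −6 and grey bands from the 5th to the 95th percentile of all genes. Sfrp1 lies above 0 in 13 of 14 clusters, Wif1 lies on both sides of 0, and both Notum values, −1.22 and −3.73, lie below 0.

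Single bulge-like cells of the induced library held more members at once. At 5000 UMIs a cell, 17.1% of control and 32.5% of induced bulge-like cells had UMIs of 3 members, and 15.9% and 8.13% had none. Before thinning, 182 of 351 control and 229 of 346 induced cells held both Sfrp1 and Sostdc1. In the dermal papilla-like cells, 63 of the 108 control cells with Notum also had Wif1, as did 112 of the 158 induced cells. Among cells without Notum, 48.5% of control and 54.7% of induced ones had Wif1. Both Notum and Dkk2 were seen in 70 control and 125 induced cells. Notum was seen in 77.8% of control cells with Dkk2 and 74.5% of those without. In the induced library these shares were 77.6% and 54.1%. The number of members seen in a cell moves with the level of each.

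**Figure D4:**
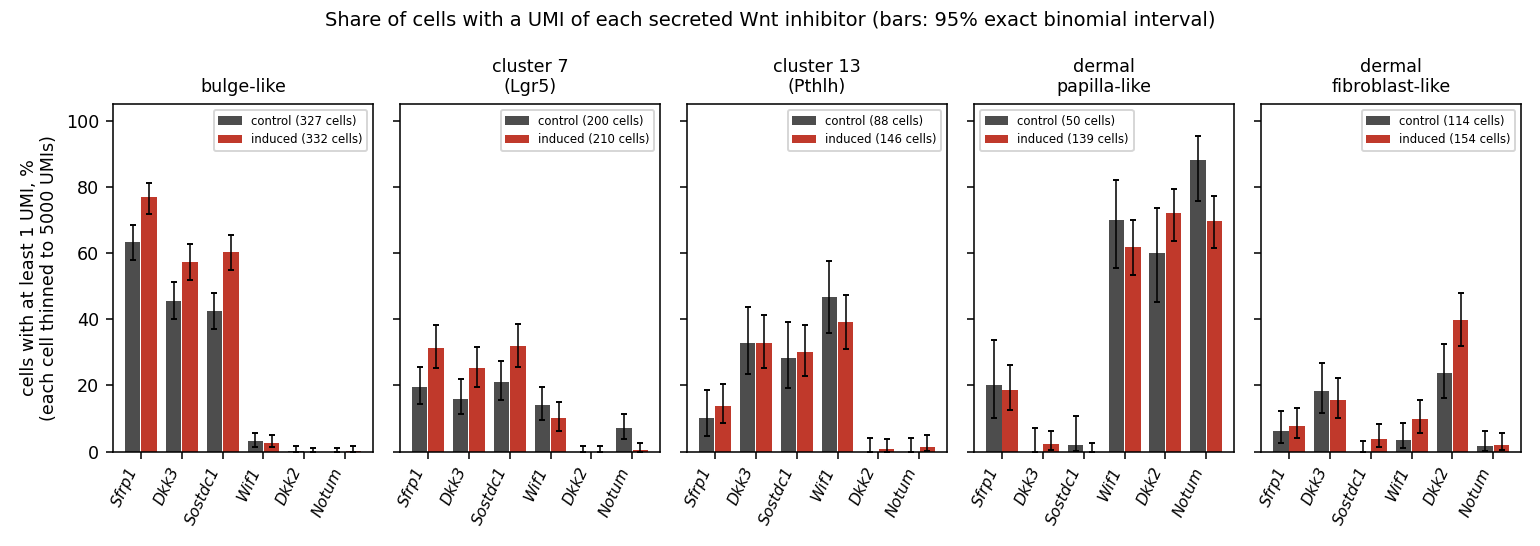
Percent of cells with at least 1 UMI of each member after thinning every cell to 5000 UMIs, in the 5 populations and 2 libraries, with exact 95% binomial intervals. Sfrp1 in the bulge-like cells stands at 63.3% in control and 76.8% in the induced library.

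Genes whose levels over the 23 clusters and 2 libraries (46 points) ran most like each member were sought among 9101 genes. For Sfrp1 they were Il31ra (Pearson's r 0.892), Tmtc1 (0.883) and Duoxa1 (0.881). Dkk3 ran with Adamtsl4 (0.915), Hmcn1 (0.891) and the Frizzled receptor gene Fzd2 (0.868), and Sostdc1 with Igsf9 (0.883), Zfp365 (0.877) and Vsnl1 (0.854). The dermal members ran with other genes of the dermis, Dkk2 with Gm26523 (0.994), Prrx1 (0.990) and Ebf1 (0.990), and Notum with Spon1 (0.955), Sobp (0.939) and Slc26a7 (0.937). Wif1 ran with Aspn (0.898), Crispld1 (0.896) and Gli1 (0.862), the last a target of Hedgehog signalling. Between members r was 0.806 for Dkk2 and Notum, 0.739 for Sfrp1 and Dkk3, and 0.672 for Dkk2 and Wif1. Ranked by Spearman's rho instead, none of the 3 genes was kept for Sfrp1, Dkk2, Dkk3, Wif1 or Notum, and 2 were kept for Sostdc1. The points share their library and its depth, and no test is attached to these values.

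The promoters of Dkk2 and Wif1, the members with a promoter sequence at hand and over 100 UMIs in the dermal papilla-like cells of each library, are shown for context. RefSeq promoter sequences (250 bases before to 50 after the start, GRCm38.p6) were at hand for 3 of the 7 members, Dkk2, Sfrp2 and Wif1. They were searched on both strands for CTTTGA and CTTTGT, the core letters bound by Tcf and Lef, the factors through which beta-catenin acts. Of 32851 promoters of 300 bases, 10249 (31.2%) held either. Only the bases before the gene's start are printed, and capitals mark the match.
Dkk2, chr3:132085042-132085265, plus strand: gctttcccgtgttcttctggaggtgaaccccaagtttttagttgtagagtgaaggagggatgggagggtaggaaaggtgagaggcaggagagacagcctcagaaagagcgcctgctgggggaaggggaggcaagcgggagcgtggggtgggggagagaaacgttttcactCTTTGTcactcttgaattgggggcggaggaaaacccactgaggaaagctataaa
Wif1, chr10:121033754-121034003, plus strand: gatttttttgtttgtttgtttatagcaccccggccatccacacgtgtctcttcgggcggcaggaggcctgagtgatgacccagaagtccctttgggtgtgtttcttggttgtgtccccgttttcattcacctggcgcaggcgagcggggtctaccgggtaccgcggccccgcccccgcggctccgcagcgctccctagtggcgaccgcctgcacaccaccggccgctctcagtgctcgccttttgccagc
Dkk2 held 1 match, and Wif1 and Sfrp2 held 0.

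The wider pathway was read from 4 lists of other Wnt genes. Rnf43 and Znrf3 were on both the antagonist and the response gene lists and are counted in each. In the bulge-like cells 9 of 20 other antagonists had enough UMIs, and 3 of them were higher past 1.5-fold and 0 lower, at a median log2 ratio of 0.37. These were Igfbp4 (21.9 to 45.4 CPM, log2 ratio 1.04), Grem1, a BMP antagonist (188 to 366 CPM, 0.96), and Shisa2, which holds Frizzled receptors inside the cell (60.6 to 98.1 CPM, 0.69). Of 16 receptor and export genes 5 were higher and 0 lower, among them the receptors Ryk (57.3 to 118 CPM, 1.04), Fzd1 (26.3 to 45.4 CPM, 0.78) and Fzd3 (44.2 to 68.7 CPM, 0.64). Of 5 ligands 2 were higher and 2 lower, Wnt4 at 0.93 and Wnt5b at −0.72. Of 10 response genes 0 were higher and 1 lower, at a median of 0.17, beside 0.09 for all genes. The shares of all genes past 1.5-fold were 12.7% higher and 6.7% lower.

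In cluster 7, where Sfrp1 and Sostdc1 were higher and Notum and Wif1 lower, the response genes were mixed. Of 11 with enough UMIs, 2 were higher and 4 lower past 1.5-fold, beside 15.4% and 8.58% of all genes, at a median of −0.34 beside 0.03 for all genes. The 2 higher ones, named after their values were seen, were the feedback genes Axin2 (8 to 33 UMIs, log2 ratio 1.78) and Rnf43 (11 to 22 UMIs, 0.77, with an interval that included 0). The cyclin genes Ccnd1 (131 to 64.3 CPM, log2 ratio −1.02) and Ccnd2 (80.9 to 46.5 CPM, −0.80) were lower, as were the feedback inhibitor gene Nkd1 (17.5 to 9.08 CPM, −0.94) and the receptor gene Tnfrsf19 (16.7 to 9.08 CPM, −0.87). The R-spondin receptor gene Lgr6 was lower (47.95 to 22.2 CPM, −1.11), and the receptor genes Fzd1 and Fzd3 and the antagonist Shisa2 were higher, at 1.37, 0.72 and 0.93. The other lists there gave 3 of 9 antagonists higher and 0 lower, 1 of 7 ligands higher and 0 lower, and 3 of 16 receptor and export genes higher and 1 lower.

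In the dermal papilla-like cells, where 10.2% of all genes were higher and 13.6% lower past 1.5-fold, the lists were mixed. Of 14 receptor and export genes 3 were higher and 2 lower, of 5 antagonists 2 and 0, of 5 ligands 1 and 1, and of 8 response genes 0 and 1. The R-spondin gene Rspo1, a booster of Wnt signalling, went from 36.2 to 100.3 CPM (log2 ratio 1.44) and Ryk from 63.4 to 118 CPM (0.88). The ligand gene Wnt16 went from 72.5 to 28.1 CPM (−1.36), with 33.3% of its control and 51.4% of its induced UMIs in 5 cells, and the feedback gene Nkd2 from 214 to 132 CPM (−0.70). In the fibroblast-like cells all 10 response genes with enough UMIs had a log2 ratio above 0, at a median of 0.41 beside 0.08 for all genes. The intervals of 5 of them included 0, and 3 were higher past 1.5-fold and 0 lower, beside 14.0% and 6.04% of all genes.

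**Figure D5:**
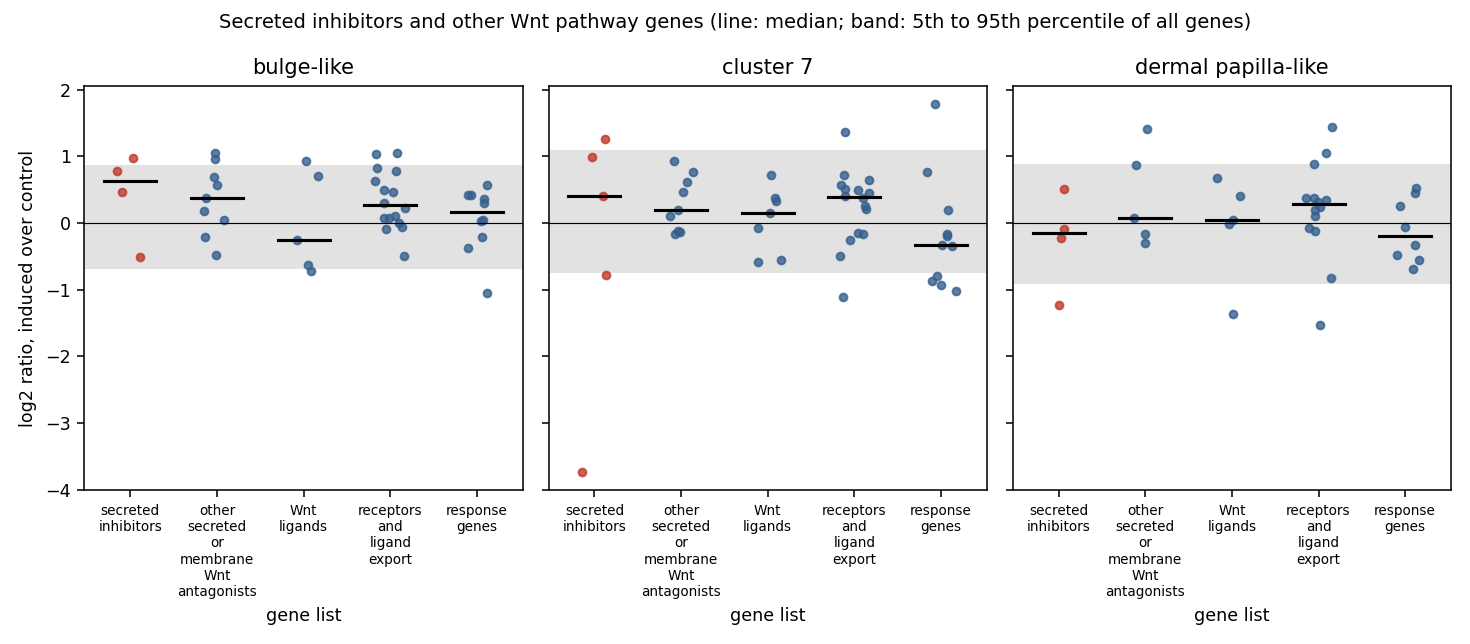
Log2 ratio of induced over control for the genes of 4 Wnt pathway lists and the 7 members with at least 20 UMIs in 3 populations, with each list's median as a line and a grey band from the 5th to the 95th percentile of all genes. In cluster 7 the response genes have a median of −0.34, beside 0.17 in the bulge-like cells.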

How the data were processed

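Cells from 1 control and 1 induced mouse were measured by 10x single-cell RNA-seq. The deposited UMI counts were made by the authors with Cell Ranger against mm10, as the submitters' processing notes name them, and the matrix header gives software version 3.0.1. Filters on cells before deposit are not given in the sources used here. Cells with over 200 and under 5000 genes and under 10% mitochondrial UMIs were kept. The 36 repeated symbols were kept apart by identifier. Doublets were kept in the main values. Scrublet's own threshold marked 4 and 5 barcodes and did not work, so an alternative left out the 166 and 155 highest-scoring barcodes. Libraries were joined by canonical correlation in Seurat 5.3.0 (R 4.3.3) with 2000 variable genes, 30 dimensions and resolution 0.8, leaving the members and Wnt lists out of the variable genes. Names came from listed markers raised 2-fold, under limits that included a rule added after the clusters were seen: a median of at least 10 Krt5 and Krt14 UMIs bars a non-epithelial name. Summed counts gave CPM with exact Poisson intervals, log2 ratios (pseudocount 0.5 UMI, at least 20 UMIs) with conditional binomial intervals, and shares with Clopper-Pearson intervals, in Python 3.11.15 and scanpy 1.11.5. Fold and ratio calculations were checked on simulated data. No test between groups was run. The members and lists were chosen with earlier results of these data known. Other Wnt genes are named when they had at least 50 UMIs, passed 1.5-fold and had an interval that left out 0, at most 8 for each of 3 populations, and pattern genes are the 3 of highest Pearson's r on log2(CPM + 10) among genes with at least 200 UMIs in each library. Genes sharing reads with a near copy were not separated further.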

Additional observations from a re-analysis of the deposited data

Results flagged for a closer look

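Wif1 differed between the libraries in opposite directions in different populations. The log2 ratio of induced over control was −2.93 in bulge-like cluster 1, −0.79 in cluster 7 and 1.48 in the dermal fibroblast-like cells, each with a counting interval that left out 0. The difference between these ratios was not tested, since each group is 1 library. In cluster 7 the value turned to 0.59 with under 5% mitochondrial UMIs, on 13 control and 21 induced UMIs. Over all bulge-like cells it was −0.51, with an interval from −1.40 to 0.33. The cluster 1 value rests on 20 control and 2 induced UMIs. In the fibroblast-like cells the 5 cells with the most Wif1 held 91.3% of the control and 74.7% of the induced UMIs.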

How the results depend on the processing

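No paired analysis was possible because each group is 1 library. Of 262 ratios of a member recomputed under planned settings, 244 stayed within the counting interval of the main value, 17 left it without reversing a called value, and 1 reversed. With under 5% mitochondrial UMIs the log2 ratio in the bulge-like cells was 1.23 for Sfrp1 and 0.68 for Sostdc1, and in cluster 7 it was 0.62 for Sfrp1, 0.78 for Sostdc1 and 0.59 for Wif1, the last reversed from −0.79. With populations taken by marker UMIs it was 0.40 for Sfrp1 and 0.65 for Sostdc1 in the bulge (497 and 727 cells), 0.61 for Sfrp1 in the hair germ (61 and 73 cells), and 1.26 for Dkk2 and −0.56 for Notum in the dermal papilla. Among dermal papilla-like cells with at least 5000 UMIs, a setting chosen after the data were seen, Dkk2 stood at 0.85. The cause of these moves was not tested. Notum in cluster 7 ranged from −5.89 to −3.27 over the settings that left at least 20 UMIs.

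Counts of members past the fold moved as follows. The share of all genes was computed only for 1.5-fold and at least 20 UMIs in the main populations, so these counts describe the members alone. In the bulge-like cells the count of higher members went from 2 to 0 past 2-fold, and of lower members from 0 to 1 with median-of-ratios scaling and 1 with no minimum. In cluster 7 the higher count went from 2 to 1 past 2-fold and to 3 with under 5% mitochondrial UMIs, and the lower count from 2 to 0 with under 5% mitochondrial UMIs, 0 by marker UMIs, 1 with at least 100 UMIs and 1 past 2-fold. In the dermal papilla-like cells the higher count went from 0 to 2 by marker UMIs, 1 with no minimum, 1 with at most 5 Krt5 and Krt14 UMIs and 1 with at least 5000 UMIs, and the lower count from 1 to 0 by marker UMIs and 2 with no minimum. The lower member added there with no minimum was Sostdc1, on 2 UMIs in each library. Median-of-ratios scaling shifted all log2 ratios by −0.09 in the bulge-like, −0.04 in cluster 7, 0.05 in the dermal papilla-like and −0.08 in the fibroblast-like cells.

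For the other Wnt genes, too, the share of all genes was not computed under the changed settings. The bulge-like higher count of 10 went to 3 past 2-fold, and the lower count of 3 to 1 with at least 100 UMIs, 5 with no minimum and 1 past 2-fold. In cluster 7 the higher count was 9, with Rnf43 counted in both of its lists. That count went to 3 with at least 100 UMIs, 17 with no minimum, 5 with an interval that leaves out 0 and 2 past 2-fold, and the lower count of 5 to 3, 11 and 2 with at least 100 UMIs, no minimum and past 2-fold. In the dermal papilla-like cells the higher count of 6 went to 2, 17, 2 and 3 under those 4 settings, and the lower count of 4 to 1 with at least 100 UMIs, 29 with no minimum and 2 past 2-fold. The 29 includes genes with 0 UMIs in both libraries, such as Dkk1, to which the pseudocount gave −0.91, past 1.5-fold. For those genes it says nothing of a lower level. Of other values, 72 of 96 levels, 81 of 107 ratios between populations and 9 of 28 shares of cells stayed within their main intervals, the shares being set by the thinning depth. Of the 3 genes most like each member, 1 to 3 were kept with log2(CPM + 1), and by Spearman's rho 2 were kept for Sostdc1 and 0 for the other members searched. Cluster 13 gave no value at resolution 0.4 or by marker UMIs. Sfrp2 had too few UMIs for a ratio in any cluster, and Notum had enough in 1 epithelial cluster.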
